A study of Mus musculus with 6 samples.

Results

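The tumour necrosis factor (TNF) superfamily genes of cultured mouse CD4+ T cells are described here across 3 plate coatings. Members were the genes whose symbol names a TNF superfamily ligand or receptor, including Tnf, Lta, Ltb, Ltbr, Cd27, Cd40, Cd40lg, Cd70, Fas and Fasl, on a probe set annotated to exactly 1 gene. Each gene was represented by its brightest probe set over all arrays. The rule took names only, but the family was chosen with earlier results of these data known. Among 17097 genes on the array 37 members were found, of which 14 were ligands and 23 receptors. Of the receptors, 5 carry a death domain, 15 bind TRAF adaptor proteins and 3 are decoy or other receptors. All 37 members were tested, since no filter on dim signals was applied.

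The study measured messenger RNA on 6 one-colour oligonucleotide arrays, to learn what the butyrophilin-like protein BTNL2 does to T cells costimulated with B7-2. CD4+CD25- T cells from female C57BL/6 mice were cultured for 4 days on coated plates, and every well received IL-2 (10 ng/ml) together with TGF-beta (0.36 ng/ml). In the anti-CD3 wells the coat was an antibody to CD3 at 2 µg/ml, which triggers the T cell receptor. In the B7-2 wells it was the same antibody with rB7-2.Fc at 3 µg/ml, an Fc fusion of the CD28 and CTLA-4 ligand B7-2 (CD86). In the BTNL2 wells it was anti-CD3, rB7-2.Fc at 3 µg/ml and rBTNL2.Fc at 11 µg/ml, so BTNL2 was never present without B7-2. The protocol names an IgG1 protein as the control for the coating. There were 2 arrays per group. Across genes, which are not independent replicates, the 2 arrays of a group had r = 0.997 to 0.998. Nothing in the labels says that duplicates came from separate animals, so the spread behind each p-value is that of cultures and arrays only. One label gives spleen and lymph nodes as the source, and the protocol gives splenocytes only.

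The labelled cell type was checked against marker lists. Cd3e lay between 2984 and 4133 and Cd4 between 1103 and 1705 on the linear intensity scale of the arrays, where the median probe set was at 18.45 to 18.8 and the nonspecific control probe sets had medians of 3.68 to 4.49. The 9 T cell markers summed to 23671 to 24021 in the anti-CD3 wells. Their sum was 19239 to 19379 in the B7-2 wells and 18739 to 18801 in the BTNL2 wells. Of these markers, 1 was higher and 6 lower with BTNL2 than with anti-CD3 alone, beside 14.2% and 16.2% of all genes. Cd28 was at 1665 and 1548, 963 and 1060, and 628 and 574 in the 3 groups. Lat, the marker that was higher, was at 1531 and 1579, 1595 and 1532, and 2051 and 2076. Other lists were also above background. The summed signal of 10 CD8 T and NK cell markers was 767 to 821 in the anti-CD3 wells. It was 431 to 447 in the B7-2 wells and 2820 to 3266 in the BTNL2 wells, with Ncr1 and Klra1 near background throughout. Most of the sum in the BTNL2 wells came from Eomes, at 1337 and 991, and Cd8a, at 987 and 924. Eomes was at 20.0 and 16.3 in the B7-2 wells. The sum over 14 B cell markers was 5671 to 6382, 3085 to 3186 and 4058 to 4996 in the same order, with Pax5 and Cr2 dim. The sum over 11 myeloid and dendritic cell markers was low, at 275 to 281, 206 to 210 and 213 to 239. On adding BTNL2, 1 of the 11 was higher and 1 lower, beside 9.52% and 10.8% of all genes. The lower was Cd68, the brightest, at 129 and 135, 92.0 and 79.4, and 59.3 and 51.7. The higher was Mpeg1, at 47.6 and 37.4, 12.5 and 29.5, and 76.1 and 63.2. The part of such cells in the results below was not tested. In bulk RNA, fewer cells of a type and less RNA per cell cannot be told apart.

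Ligands of the TNF superfamily are mostly trimeric proteins on the cell surface, some of them shed, that bind cysteine-rich receptors on neighbouring cells. Receptors with a death domain can recruit FADD and caspase-8 or, as the TNF receptor Tnfrsf1a does, both survival and death complexes. Most others recruit TRAF proteins and activate NF-kappaB, and on T cells these include the costimulatory receptors OX40 (Tnfrsf4), 4-1BB (Tnfrsf9), GITR (Tnfrsf18) and CD27, which sustain the response after CD28 has engaged its ligands.

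Members were called in every comparison and in both directions. B7-2 raised 7 members and lowered 8 relative to anti-CD3 alone, so 15 of 37 were called at a limma adjusted p under 0.05, or 40.5%, where 24.5% of all genes were called. Adding BTNL2 to B7-2 raised 12 and lowered 4, so 16 of 37 were called, or 43.2%, against 20.4% of all genes. Against anti-CD3 alone the BTNL2 wells had 11 members higher and 8 lower, so 19 of 37 were called, or 51.4%, against 30.4% of all genes. Changes of at least 2-fold were called for 9, 6 and 10 members in the 3 comparisons, where 3.88%, 5.19% and 7.15% of all genes were called at that size. The median log2 change of the members was -0.04, 0.14 and 0.04, beside -0.00, -0.01 and -0.00 over all genes, and the median size of the change without its sign was 0.41, 0.36 and 0.34, beside 0.18, 0.16 and 0.19. The 3 comparisons share arrays, so their counts are not independent. The family was chosen with earlier results of these data known. Of the 37 members, 32 lay above the 40th percentile of probe set intensity, whereas the shares of all genes include dim genes. The part of brightness in these differences was not tested. The BTNL2 against B7-2 count fell from 16 to 10 without B7-2 replicate 1, without B7-2 replicate 2 and without BTNL2 replicate 1. Such a fit leaves 1 array in a group, whose spread is then assumed to be that of the other groups, so it has fewer degrees of freedom and a lost call need not mean a smaller change.

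By role, the calls on adding BTNL2 were rises among the ligands and of both kinds among the receptors. Of 14 ligands, 8 were higher and 0 lower, and of 23 receptors 4 were higher and 4 lower. All genes were called higher at 9.52% and lower at 10.8% in that comparison. With B7-2 alone, 5 ligands rose and 3 fell, and 2 receptors rose and 5 fell, beside 11.2% of all genes higher and 13.3% lower. Against anti-CD3 alone, the BTNL2 wells had 7 ligands higher and 1 lower, and 4 receptors higher and 7 lower, beside 14.2% and 16.2% of all genes. The difference between ligands and receptors was not tested.

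**Figure D1:**
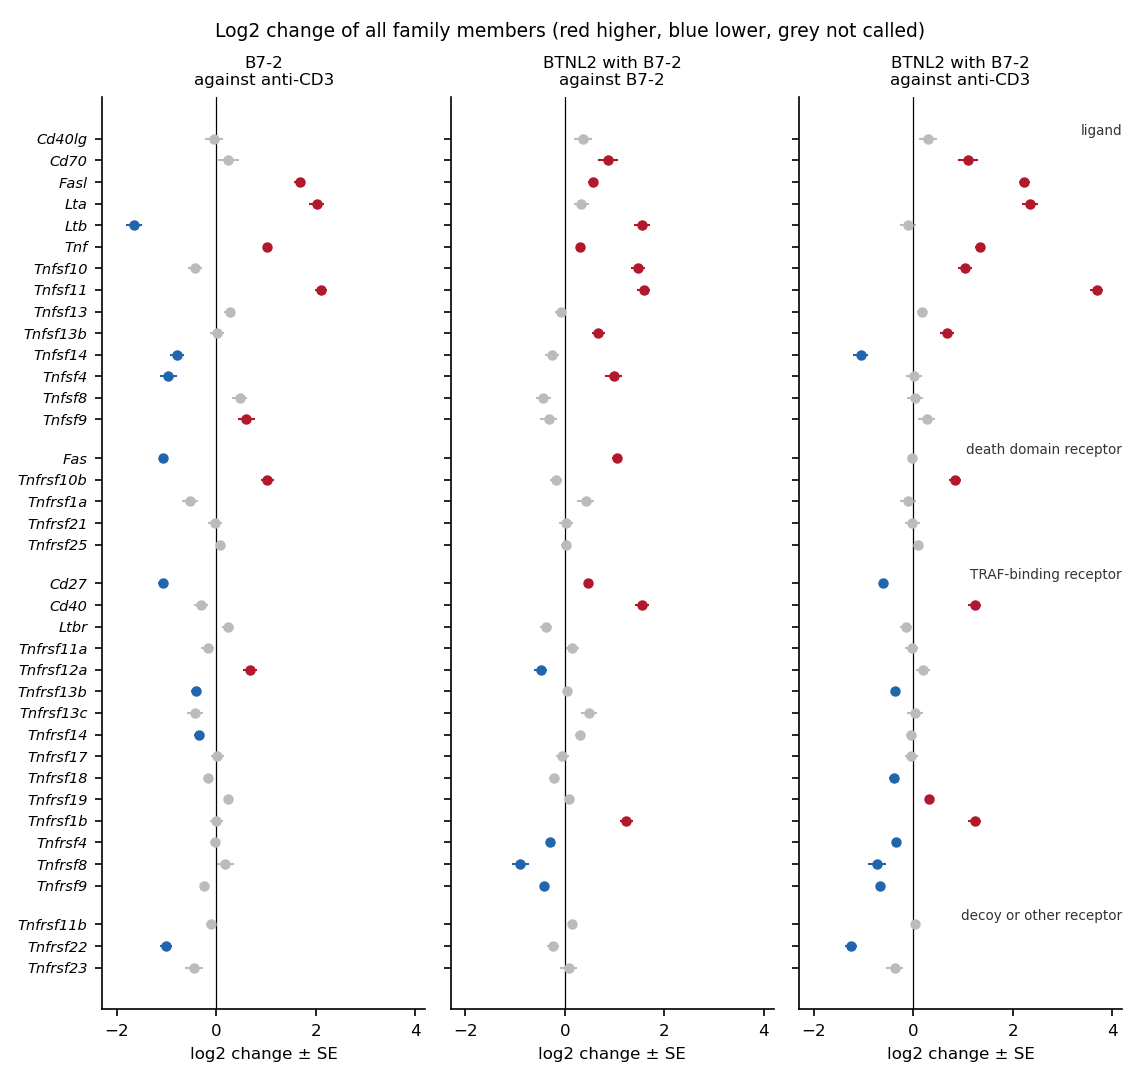
Log2 change with its standard error for all 37 members in the 3 comparisons, ordered by role, with called rises in red, called falls in blue and the rest in grey. Tnfsf11 has the largest change of any member, at 3.69 in the BTNL2 wells against anti-CD3 alone.

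Tnfsf11, Fasl, Lta and Tnf rose with B7-2, and all but Lta were called higher again when BTNL2 was added. Tnfsf11 encodes RANKL, the ligand of RANK that drives osteoclast formation and supports dendritic cell survival. Its intensity was 64.3 and 54.3 in the anti-CD3 wells, 247 and 261 in the B7-2 wells, and 835 and 698 in the BTNL2 wells. The 3 groups did not overlap, and each coating lay above the one before it. The log2 change was 2.10 ± 0.13 (SE) with B7-2 (limma adjusted p = 0.000193), 1.59 ± 0.13 on adding BTNL2 (limma adjusted p = 0.000236) and 3.69 ± 0.13 between the BTNL2 and anti-CD3 wells (limma adjusted p = 8.56e-06), a 12.9-fold difference. A fainter Tnfsf11 probe set, at 5.36 to 8.86 on the 6 arrays and so close to the controls, gave -0.32 with B7-2 (limma adjusted p = 0.0436) and 0.68 on adding BTNL2 (limma adjusted p = 0.00216). The mean of both probe sets gave 0.89 with B7-2 and 2.03 between the BTNL2 and anti-CD3 wells, both still called.

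Fasl encodes Fas ligand, through which cytotoxic and activated T cells kill cells that carry Fas. Its intensity was 68.3 and 74.1 in the anti-CD3 wells, 245 and 209.95 in the B7-2 wells, and 333 and 337 in the BTNL2 wells. All arrays of each coating lay above those of the coating before it. The log2 change was 1.67 ± 0.11 with B7-2 (limma adjusted p = 0.000231) and 0.57 ± 0.11 on adding BTNL2 (limma adjusted p = 0.00992). The second call was lost without B7-2 replicate 2, where the change was 0.45 (limma adjusted p = 0.0547), and with the fainter Fasl probe set, where it was also 0.45 (limma adjusted p = 0.0978). The whole difference between BTNL2 and anti-CD3 wells was 2.24 ± 0.11, or 4.71-fold (limma adjusted p = 2.38e-05). Among the CD8 T and NK cell markers, 6 of 10 were also called higher and 0 lower on adding BTNL2, beside 9.52% and 10.8% of all genes. With B7-2, 1 of 10 was called higher and 5 lower, beside 11.2% and 13.3% of all genes. Cd8a itself was at 302 and 321, 119 and 107, and 987 and 924 in the 3 groups in turn. The part of CD8 T and NK cells in the Fasl signal was not tested.

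Lta encodes lymphotoxin alpha, a secreted ligand of both TNF receptors that also pairs with lymphotoxin beta at the cell surface. Its intensity was 464 and 388, then 1684 and 1747, then 2514 and 1861 in the anti-CD3, B7-2 and BTNL2 wells. The groups did not overlap, but the BTNL2 duplicates differed most. B7-2 raised Lta by 2.01 ± 0.16 (limma adjusted p = 0.000443), a 4.04-fold rise. The change on adding BTNL2, 0.33 ± 0.16, did not pass the test (limma adjusted p = 0.200), though it did without BTNL2 replicate 2, at 0.55 (limma adjusted p = 0.0495), and where the variance prior followed the intensity (limma adjusted p = 0.0413). Tnf, the founding ligand of the family, was at 26.6 and 26.65 in the anti-CD3 wells, 55.2 and 53.0 in the B7-2 wells and 69.2 and 65.1 in the BTNL2 wells. B7-2 raised it by 1.02 ± 0.09 (limma adjusted p = 0.000505). The further rise with BTNL2, 0.31 ± 0.09, was called narrowly (limma adjusted p = 0.0444). The call was lost without any 1 of the B7-2 and BTNL2 arrays, with changes of 0.27 to 0.36 and limma adjusted p between 0.0752 and 0.173, and with those 4 arrays alone (limma adjusted p = 0.0773), which is the same fit as leaving out either anti-CD3 array. It was also lost where the variance prior followed the intensity and with the replicate block.

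**Figure D2:**
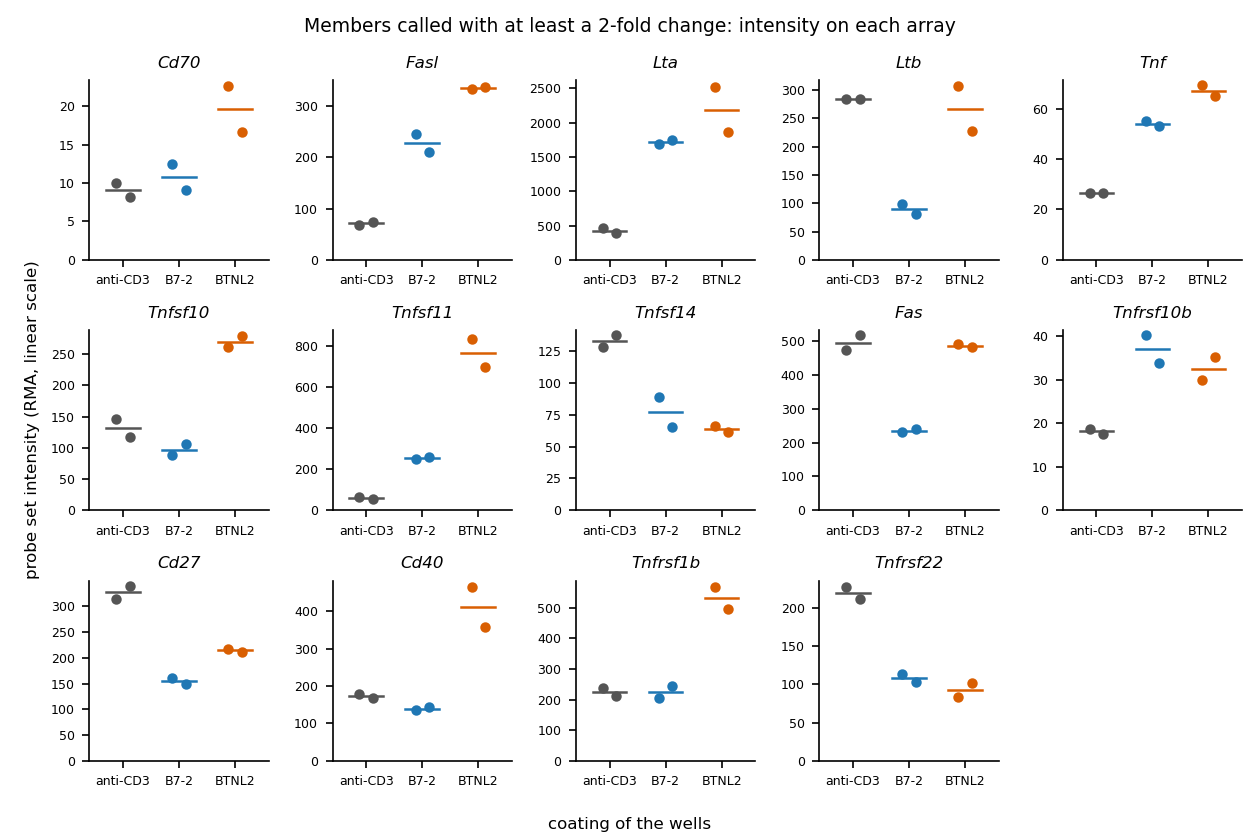
Probe set intensity on a linear scale for the 14 members called with at least a 2-fold change, 1 point per array with the mean of the 2 arrays of each group as a bar, each panel from 0. The arrays of Tnfsf11, Fasl, Lta and Tnf lie higher at each coating, though the second step was not called for Lta and only narrowly for Tnf. Ltb, Fas and Cd27 were called lower in the B7-2 wells than in both other groups.

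Ltb, which lies beside Tnf and Lta on chromosome 17 with 0 protein-coding genes between them, went the other way with B7-2. It encodes lymphotoxin beta, the membrane anchor of lymphotoxin alpha in the ligand of Ltbr, through which lymphoid tissue is organised. Its intensity was 284.6 and 284.8 in the anti-CD3 wells, 99.0 and 81.4 in the B7-2 wells, and 307 and 227 in the BTNL2 wells. The B7-2 arrays lay below all others, and the BTNL2 and anti-CD3 arrays overlapped. Ltb fell by 1.67 ± 0.16 on the log2 scale with B7-2 (limma adjusted p = 0.000739) and rose by 1.56 ± 0.16 on adding BTNL2 (limma adjusted p = 0.000691), and the BTNL2 and anti-CD3 wells differed by -0.11 ± 0.16 (limma adjusted p = 0.679). Of 14 B cell markers, 0 were higher and 10 lower with B7-2, beside 11.2% and 13.3% of all genes. On adding BTNL2, 7 of these markers were higher and 2 lower, beside 9.52% and 10.8% of all genes. The part of B cells in the Ltb values was not tested.

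The promoters of these 3 neighbours, and of Tnfsf11 as the member with the largest change, are shown because Lta and Tnf rose with B7-2 where Ltb fell. Each is the 250 bases before the RefSeq gene start on GRCm38.p6, 5′ to 3′ on the gene's strand. The windows are chr17:35205352-35205601 on the minus strand for Lta, chr17:35202008-35202257 on the minus strand for Tnf, chr17:35194257-35194506 on the plus strand for Ltb and chr14:78308044-78308293 on the minus strand for Tnfsf11. Capitals mark every match on either strand to a loose form of the NF-kappaB motif, GGG and CC with any 5 bases between them.
Lta promoter: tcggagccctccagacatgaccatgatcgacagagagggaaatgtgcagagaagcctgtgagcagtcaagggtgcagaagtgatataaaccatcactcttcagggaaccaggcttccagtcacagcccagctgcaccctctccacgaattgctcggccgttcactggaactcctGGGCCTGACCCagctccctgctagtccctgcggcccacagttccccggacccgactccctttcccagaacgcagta
Tnf promoter: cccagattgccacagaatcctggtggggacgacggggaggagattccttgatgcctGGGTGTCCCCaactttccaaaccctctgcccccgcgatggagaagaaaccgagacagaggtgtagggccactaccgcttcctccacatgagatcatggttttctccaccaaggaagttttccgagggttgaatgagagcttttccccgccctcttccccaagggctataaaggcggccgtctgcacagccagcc
Ltb promoter: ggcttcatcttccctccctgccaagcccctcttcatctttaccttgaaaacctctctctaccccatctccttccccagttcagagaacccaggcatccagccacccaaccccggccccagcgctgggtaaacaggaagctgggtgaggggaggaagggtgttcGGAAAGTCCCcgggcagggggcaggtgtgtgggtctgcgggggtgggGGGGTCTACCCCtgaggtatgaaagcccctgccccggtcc
Tnfsf11 promoter: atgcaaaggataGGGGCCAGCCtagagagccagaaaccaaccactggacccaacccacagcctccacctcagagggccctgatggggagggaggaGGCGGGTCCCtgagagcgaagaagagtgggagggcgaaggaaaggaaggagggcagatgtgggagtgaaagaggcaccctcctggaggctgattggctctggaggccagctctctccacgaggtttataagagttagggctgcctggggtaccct
The Lta window holds 2 overlapping matches that start 76 and 75 bases before the gene start, and the Tnf window 1 at 194 bases. The Ltb window holds 4, at 87, 40, 39 and 38 bases, the last 3 overlapping, and the Tnfsf11 window 2, at 238 and 155 bases. So the motif is in the windows of the neighbours that rose and of the one that fell. The motif is loose. Over the full window of 300 bases, which runs 50 bases past the start, it was found in 50.8% of all 32851 promoter windows in the table. Of 29 members with a window, 21 had a match in at least 1 window, or 72.4%, beside 53.5% of all genes. Binding was not analysed here, and a match is a description of the letters only.

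Among the other ligands, Tnfsf10, Tnfsf4, Cd70 and Tnfsf13b rose on adding BTNL2 and Tnfsf14 fell with B7-2. Tnfsf10 encodes TRAIL, a death ligand. Its intensity was 146 and 118 in the anti-CD3 wells, 89.0 and 106 in the B7-2 wells, and 261 and 278 in the BTNL2 wells, which lay above all others. BTNL2 raised it by 1.47 ± 0.14 (limma adjusted p = 0.000438), and the change with B7-2 was -0.44 ± 0.14 (limma adjusted p = 0.0590). Without anti-CD3 replicate 2 the latter became -0.59 and passed (limma adjusted p = 0.0445). The other Tnfsf10 probe sets gave 0.88 and 1.35 on adding BTNL2, both called.

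Tnfsf4 encodes OX40 ligand, which is best known on antigen-presenting cells. It was at 24.2 and 26.5 in the anti-CD3 wells, 15.1 and 11.2 in the B7-2 wells, and 23.2 and 28.4 in the BTNL2 wells. The B7-2 arrays were lowest, and the other groups overlapped. The log2 change was -0.97 ± 0.17 with B7-2 (limma adjusted p = 0.00611), 0.98 ± 0.17 on adding BTNL2 (limma adjusted p = 0.00639) and 0.02 ± 0.17 between the BTNL2 and anti-CD3 wells (limma adjusted p = 0.958). Cd70 encodes the ligand of CD27 and was dim, at 9.98 and 8.17, then 12.4 and 9.15, then 22.7 and 16.6 in the 3 groups. It is 1 of 5 members whose mean lay under the array's 40th percentile, an intensity of 12.4. BTNL2 raised it by 0.86 ± 0.20 (limma adjusted p = 0.0244), a call lost without B7-2 replicate 2, at 0.64 (limma adjusted p = 0.108), and without BTNL2 replicate 1, also at 0.64 (limma adjusted p = 0.127). Against anti-CD3 alone the rise was 1.10 ± 0.20 (limma adjusted p = 0.00575), and no left-out array ended that call.

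Tnfsf13b encodes BAFF, the B cell survival factor. It was at 40.9 and 36.2, then 35.3 and 42.4, then 67.7 and 56.4, so the BTNL2 arrays lay above all others and the anti-CD3 and B7-2 arrays overlapped. The rise on adding BTNL2 was 0.68 ± 0.14 (limma adjusted p = 0.0139). It was lost without B7-2 replicate 1, at 0.54 (limma adjusted p = 0.0762), and without BTNL2 replicate 1, at 0.55 (limma adjusted p = 0.0805). Against anti-CD3 alone the change was also 0.68 ± 0.14 (limma adjusted p = 0.00852), lost without anti-CD3 replicate 2, at 0.60 (limma adjusted p = 0.0580), and without BTNL2 replicate 1, at 0.55 (limma adjusted p = 0.0512). Of 2 fainter Tnfsf13b probe sets, 1 gave 0.59 on adding BTNL2 and the other -0.12, and the mean over all gave 0.38, still called.

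Tnfsf14 encodes LIGHT, the ligand of HVEM (Tnfrsf14) and Ltbr, and was the member ligand that fell in both comparisons with anti-CD3 alone. It was at 128 and 137 in the anti-CD3 wells, 88.7 and 65.6 in the B7-2 wells, and 66.1 and 61.3 in the BTNL2 wells, where the B7-2 and BTNL2 arrays overlapped. B7-2 lowered it, with a log2 change of -0.80 ± 0.15 (limma adjusted p = 0.00822). That call was lost without anti-CD3 replicate 2, at -0.75 (limma adjusted p = 0.0522), and with the mean of its 2 probe sets, at -0.48 (limma adjusted p = 0.0507). The BTNL2 wells lay at -1.06 ± 0.15 against anti-CD3 alone (limma adjusted p = 0.00173), and the change on adding BTNL2 was -0.26 ± 0.15 (limma adjusted p = 0.283). Tnfsf14 lies next to Cd70, and Cd70 next to Tnfsf9, with 0 protein-coding genes between, and against anti-CD3 alone the BTNL2 wells were called higher for Cd70 and lower for Tnfsf14.

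Tnfsf9 encodes 4-1BB ligand. It was at 34.1 and 27.4, then 39.6 and 54.0, then 38.6 and 35.2. B7-2 raised it by 0.60 ± 0.17 (limma adjusted p = 0.0431). That call was lost in several fits. Without B7-2 replicate 2 the change was 0.37 (limma adjusted p = 0.179), without anti-CD3 replicate 2 it was 0.44 (limma adjusted p = 0.205), without anti-CD3 replicate 1 it was 0.75 (limma adjusted p = 0.0573), and with the 4 arrays of the comparison alone it was 0.60 (limma adjusted p = 0.0643). Cd40lg, the CD40 ligand by which helper T cells activate B cells, was at 14.8 to 25.1 over all arrays and was called in no comparison, but without B7-2 replicate 2 its change on adding BTNL2 went from 0.36 to 0.62 and passed (limma adjusted p = 0.0421). Tnfsf8, the CD30 ligand, had changes of 0.47 with B7-2 (limma adjusted p = 0.0720) and -0.43 on adding BTNL2 (limma adjusted p = 0.103). The first passed with the 4 arrays of the comparison alone (limma adjusted p = 0.0147) and where the variance prior followed the intensity (limma adjusted p = 0.0401), and the second without BTNL2 replicate 1, at -0.67 (limma adjusted p = 0.0135). Tnfsf13, which encodes APRIL, was near background at 6.20 to 8.19 and was not called.

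Of the 5 death domain receptors, Fas and Tnfrsf10b were called. Fas is the receptor of Fas ligand. It was at 473 and 516 in the anti-CD3 wells, 230.2 and 240.1 in the B7-2 wells, and 489 and 482 in the BTNL2 wells. The B7-2 arrays lay well below all others, and the rest overlapped. Its log2 change was -1.07 ± 0.09 with B7-2 (limma adjusted p = 0.000500), 1.05 ± 0.09 on adding BTNL2 (limma adjusted p = 0.000323) and -0.02 ± 0.09 between the BTNL2 and anti-CD3 wells (limma adjusted p = 0.885). So the B7-2 wells had more Fasl and less Fas signal than anti-CD3 alone, and the BTNL2 wells had more Fasl signal with a Fas signal that overlapped that of the anti-CD3 wells.

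Tnfrsf10b encodes the mouse TRAIL receptor. It was at 18.7 and 17.6 in the anti-CD3 wells, 40.2 and 33.9 in the B7-2 wells, and 30.0 and 35.3 in the BTNL2 wells, so the anti-CD3 arrays were lowest and the other groups overlapped. B7-2 raised it by 1.02 ± 0.12 (limma adjusted p = 0.00166), the BTNL2 wells lay 0.84 ± 0.12 above anti-CD3 alone (limma adjusted p = 0.00228), and the change on adding BTNL2 was -0.18 ± 0.12 (limma adjusted p = 0.375). A fainter probe set gave 0.31 with B7-2 (limma adjusted p = 0.213) and -0.01 against anti-CD3 in the BTNL2 wells (limma adjusted p = 0.970). The mean of both gave 0.66 and 0.41, both called. Tnfrsf1a, the TNF receptor with a death domain, changed by -0.53 with B7-2 (limma adjusted p = 0.0554) and by 0.42 on adding BTNL2 (limma adjusted p = 0.125). The first passed without either BTNL2 array (limma adjusted p = 0.0132) and the second without BTNL2 replicate 1, at 0.66 (limma adjusted p = 0.0192). Tnfrsf25, or DR3, stayed between 83.00 and 94.5. Tnfrsf21, or DR6, lay between 11.2 and 15.2 on its brightest probe set with no call, whereas its other probe set was at 7.99 to 9.55 in the anti-CD3 and B7-2 wells and 14.5 and 16.5 in the BTNL2 wells, a change of 0.76 on adding BTNL2 (limma adjusted p = 0.00528).

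Of the 3 decoy or other receptors, Tnfrsf22 fell. It encodes a mouse TRAIL receptor without a death domain. Its intensity was 227 and 211 in the anti-CD3 wells, 113 and 103 in the B7-2 wells, and 83.8 and 101 in the BTNL2 wells, so the anti-CD3 arrays lay above all others. On the log2 scale the difference was -1.02 ± 0.12 with B7-2 (limma adjusted p = 0.00140), -1.25 ± 0.12 in the BTNL2 wells against anti-CD3 alone (limma adjusted p = 0.000332) and -0.23 ± 0.12 on adding BTNL2 (limma adjusted p = 0.238). Its other 3 probe sets gave -0.63, -0.35 and -0.26 with B7-2, of which the first was called, and the mean over all 4 gave -0.56 (limma adjusted p = 0.00422). The neighbouring Tnfrsf23, also a TRAIL decoy receptor, was dim at 10.6 to 18.5, with a change of -0.45 with B7-2 (limma adjusted p = 0.109). Tnfrsf11b, the secreted RANKL decoy osteoprotegerin, was at 12.0 to 14.2 and not called.

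Of the costimulatory receptors, the 4-1BB, OX40 and GITR genes were lowest in the BTNL2 wells. Tnfrsf9, or 4-1BB, was at 4221 and 4058 in the anti-CD3 wells, 3488 and 3484 in the B7-2 wells, and 2549 and 2663 in the BTNL2 wells. The 3 groups did not overlap, and each coating lay below the one before it. On the log2 scale the differences were -0.25 ± 0.09 with B7-2 (limma adjusted p = 0.0784), -0.42 ± 0.09 on adding BTNL2 (limma adjusted p = 0.0137) and -0.67 ± 0.09 against anti-CD3 alone (limma adjusted p = 0.00115). The call on adding BTNL2 was lost without B7-2 replicate 1 (-0.42, limma adjusted p = 0.0679), without B7-2 replicate 2 (-0.42, limma adjusted p = 0.0624) and without BTNL2 replicate 1 (-0.39, limma adjusted p = 0.0698). A second bright Tnfrsf9 probe set gave -0.69 on adding BTNL2 (limma adjusted p = 0.00709), and the faintest, at 7.04 to 8.31, near background, gave 0.08 (limma adjusted p = 0.594).

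Tnfrsf4, or OX40, was at 3900.3 and 4040.2 in the anti-CD3 wells, 3869 and 3856 in the B7-2 wells, and 3096 and 3184 in the BTNL2 wells, which lay below all others. Its change on adding BTNL2 was -0.30 ± 0.08 (limma adjusted p = 0.0459), and leaving out any 1 of the B7-2 and BTNL2 arrays ended that call, with values of -0.28 to -0.32 and limma adjusted p between 0.100 and 0.162. It was also lost with those 4 arrays alone (limma adjusted p = 0.0769), with the quantile normalization repeated and with the replicate block. Against anti-CD3 alone the change was -0.34 ± 0.08 (limma adjusted p = 0.0205), lost without anti-CD3 replicate 1 (-0.36, limma adjusted p = 0.0687), anti-CD3 replicate 2 (-0.31, limma adjusted p = 0.105), BTNL2 replicate 1 (-0.32, limma adjusted p = 0.0816) and BTNL2 replicate 2 (-0.36, limma adjusted p = 0.0557). Its neighbour Tnfrsf18, or GITR, was at 3674 and 3635, then 3401 and 3085, then 2647 and 2923. The groups did not overlap, and the change against anti-CD3 alone was -0.39 ± 0.10 (limma adjusted p = 0.0210). That call was lost without anti-CD3 replicate 1 (-0.39, limma adjusted p = 0.0928), anti-CD3 replicate 2 (-0.40, limma adjusted p = 0.0838) and BTNL2 replicate 1 (-0.32, limma adjusted p = 0.102). On adding BTNL2 the Tnfrsf18 change was -0.22 ± 0.10 (limma adjusted p = 0.175).

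**Figure D3:**
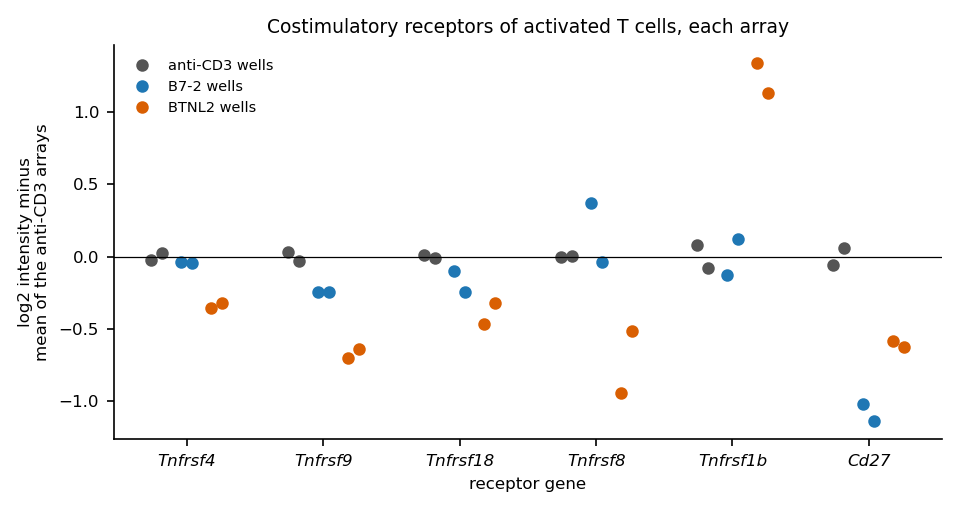
Log2 intensity of 6 costimulatory receptor genes on each array, relative to the mean of the anti-CD3 arrays of the same gene, 1 point per array. The BTNL2 arrays lie below both other groups for Tnfrsf4, Tnfrsf9, Tnfrsf18 and Tnfrsf8 and above both for Tnfrsf1b, and the B7-2 arrays are lowest for Cd27.

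Tnfrsf8 encodes CD30, a receptor of activated T cells. It was at 37.4 on both anti-CD3 arrays, 48.5 and 36.4 in the B7-2 wells, and 19.5 and 26.1 in the BTNL2 wells. The BTNL2 arrays lay below all others. Its log2 change was -0.89 ± 0.18 on adding BTNL2 (limma adjusted p = 0.0127) and -0.73 ± 0.18 against anti-CD3 alone (limma adjusted p = 0.0193). The first call was lost without B7-2 replicate 1 (-0.69, limma adjusted p = 0.0611) and BTNL2 replicate 1 (-0.68, limma adjusted p = 0.0669). The second was lost without anti-CD3 replicate 1 (-0.73, limma adjusted p = 0.0812), anti-CD3 replicate 2 (-0.73, limma adjusted p = 0.0821) and BTNL2 replicate 1 (-0.52, limma adjusted p = 0.0979).

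Tnfrsf1b and Cd27 took other courses. Tnfrsf1b, the neighbour of Tnfrsf8 on chromosome 4, encodes TNF receptor 2, which is abundant on regulatory and activated T cells. It was at 239 and 213 in the anti-CD3 wells, 206 and 245 in the B7-2 wells, and 569 and 494 in the BTNL2 wells. The BTNL2 arrays lay above all others, and the anti-CD3 and B7-2 arrays overlapped. The rise on adding BTNL2 was 1.24 ± 0.13, or 2.36-fold (limma adjusted p = 0.000675), and the change with B7-2 was -0.00 ± 0.13 (limma adjusted p = 0.991). A faint second probe set gave 0.22 on adding BTNL2 (limma adjusted p = 0.437), and the mean of both gave 0.73 (limma adjusted p = 0.00210). Of 6 regulatory T cell markers, 4 were higher and 1 lower on adding BTNL2, beside 9.52% and 10.8% of all genes. Their summed signal was 5781 to 5888 in the anti-CD3 wells, 6704 to 6999 in the B7-2 wells and 5710.5 to 5952 in the BTNL2 wells. Most of that sum was Il2ra, at 4477 and 4570 in the B7-2 wells and 4077 and 4042 in the BTNL2 wells. Foxp3 was at 70.3 and 77.6 in the B7-2 wells and 299.5 and 306 in the BTNL2 wells, and Ctla4, the marker that fell, at 1572 and 1798 and at 532 and 540.2. Their part in the Tnfrsf1b rise was not tested.

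Cd27 encodes the CD70 receptor, which is carried by naive and central memory T cells. It was at 314 and 339 in the anti-CD3 wells, 161 and 148 in the B7-2 wells, and 218 and 212 in the BTNL2 wells, with no overlap between groups. Its log2 change was -1.08 ± 0.09 with B7-2 (limma adjusted p = 0.000525) and 0.48 ± 0.09 on adding BTNL2 (limma adjusted p = 0.0119), which left the BTNL2 wells 0.60 below anti-CD3 alone (-0.60 ± 0.09, limma adjusted p = 0.00263). The rise on adding BTNL2 was lost without B7-2 replicate 2 (0.42, limma adjusted p = 0.0693) and BTNL2 replicate 1 (0.46, limma adjusted p = 0.0623).

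Among receptors best known from B cells, Cd40 rose on adding BTNL2. CD40 is the receptor by which helper T cells activate B cells and dendritic cells. It was at 178 and 168 in the anti-CD3 wells, 135 and 143 in the B7-2 wells, and 464 and 358 in the BTNL2 wells, which lay above all others. The log2 change was 1.55 ± 0.13 on adding BTNL2 (limma adjusted p = 0.000321), 1.24 ± 0.13 against anti-CD3 alone (limma adjusted p = 0.000578) and -0.31 ± 0.13 with B7-2 (limma adjusted p = 0.144). A second Cd40 probe set gave 1.66 on adding BTNL2. Tnfrsf13b, or TACI, was at 449 and 400, then 325 and 312, then 326 and 333. It fell with B7-2 (-0.41 ± 0.09, limma adjusted p = 0.0198) and was lower in the BTNL2 wells than with anti-CD3 alone (-0.36 ± 0.09, limma adjusted p = 0.0259). The first call was lost without anti-CD3 replicate 1 (-0.33, limma adjusted p = 0.118), B7-2 replicate 1 (-0.44, limma adjusted p = 0.0644) and B7-2 replicate 2 (-0.38, limma adjusted p = 0.0950), and the second without anti-CD3 replicate 1 (-0.28, limma adjusted p = 0.145), BTNL2 replicate 1 (-0.35, limma adjusted p = 0.0969) and BTNL2 replicate 2 (-0.38, limma adjusted p = 0.0756).

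Tnfrsf13c, the BAFF receptor, had changes of -0.44 with B7-2 (limma adjusted p = 0.0916) and 0.48 on adding BTNL2 (limma adjusted p = 0.0785). The first passed without anti-CD3 replicate 2, at -0.67 (limma adjusted p = 0.0227), and the second without either anti-CD3 array (limma adjusted p = 0.0295). Tnfrsf17, or BCMA, was near background at 5.93 to 7.24. Of the 14 B cell markers, 1 was higher and 5 lower in the BTNL2 wells than with anti-CD3 alone, beside 14.2% and 16.2% of all genes. Their median log2 change was -0.32. On adding BTNL2, 7 of them were higher and 2 lower, beside 9.52% and 10.8% of all genes, with a median of 0.51. The marker that was higher against anti-CD3 alone, Ms4a1 (CD20), was at 133 and 128, 95.3 and 97.8, and 280.2 and 384 in the 3 groups. H2-Aa was at 359 and 294, 128 and 131, and 292 and 329. Cd74 was at 2044 and 1873, 863 and 1004, and 1873 and 2158. Ebf1, a B lineage transcription factor, was at 143 and 148, 161 and 138, and 49.6 and 61.5. H2-Ab1, an MHC class II gene that makes up much of the list's sum, was at 2395 and 2074, 1271 and 1236, and 621 and 939. The part of B cells in the Cd40, Tnfrsf13b and Tnfrsf13c values was not tested.

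The remaining receptors were called at less than 2-fold or in no comparison. Tnfrsf12a, the TWEAK receptor, was at 33.1 and 26.0, then 49.6 and 44.5, then 35.2 and 31.9. It rose with B7-2 by 0.68 ± 0.14 (limma adjusted p = 0.0112) and fell on adding BTNL2, with a change of -0.49 ± 0.14 (limma adjusted p = 0.0456). The rise was lost without anti-CD3 replicate 2 (0.51, limma adjusted p = 0.0552) and B7-2 replicate 1 (0.60, limma adjusted p = 0.0628). The fall was lost without B7-2 replicate 1 (-0.41, limma adjusted p = 0.195), B7-2 replicate 2 (-0.56, limma adjusted p = 0.0821), BTNL2 replicate 1 (-0.56, limma adjusted p = 0.0998) and BTNL2 replicate 2 (-0.41, limma adjusted p = 0.175), and over the mean of its probe sets (-0.37, limma adjusted p = 0.0544).

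Tnfrsf14, or HVEM, a receptor of LIGHT, was called lower with B7-2 (-0.36 ± 0.10, limma adjusted p = 0.0417), a call lost without either anti-CD3 array and without either B7-2 array, with values of -0.32 to -0.39 and limma adjusted p between 0.103 and 0.167, and also where the variance prior followed the intensity (limma adjusted p = 0.0957). Tnfrsf19, or TROY, was called higher in the BTNL2 wells than with anti-CD3 alone (0.33 ± 0.09, limma adjusted p = 0.0260), at 16.7 to 21.2 over all arrays. That call was lost without either anti-CD3 or BTNL2 array, with values of 0.31 to 0.34 and limma adjusted p between 0.0765 and 0.110, and another probe set gave -0.18. It was also lost over the mean of its probe sets (0.14, limma adjusted p = 0.284) and where the variance prior followed the intensity (limma adjusted p = 0.109). Ltbr, the lymphotoxin beta receptor, and Tnfrsf11a, which encodes RANK, were below the 40th percentile and not called. In all, 25 members were called in at least 1 comparison and 12 in none. The matching share of all genes was not counted, so the 25 have no background to be set against. The single comparisons called 24.5%, 20.4% and 30.4% of all genes, which is a different measure. The 12 members called in none had mean intensities of 6.60 to 252 and log2 changes of -0.53 to 0.48.

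Set side by side, ligands and their receptors within these cultures moved in different ways. Tnfsf11 rose 12.9-fold in the BTNL2 wells against anti-CD3 alone, and both of its receptor genes, Tnfrsf11a and Tnfrsf11b, were dim and not called. Tnfsf10 rose on adding BTNL2 by 1.47, while its receptor Tnfrsf10b had -0.18 and the decoys Tnfrsf22 and Tnfrsf23 had -0.23 and 0.08, none of them called. Tnf and Lta were highest in the BTNL2 wells together with Tnfrsf1b, and Tnfrsf1a was called in no comparison. Cd70 and Cd27 both rose on adding BTNL2, by 0.86 and 0.48. Tnfsf4 rose by 0.98 there and its receptor Tnfrsf4 had a change of -0.30. These pairs are matched by known binding and were not tested as pairs. Of the 37 members, 4 were called in the opposite direction in the 2 steps, lower with B7-2 and higher on adding BTNL2, namely Ltb, Tnfsf4, Fas and Cd27, and Tnfrsf12a was called higher and then lower. Both steps share the B7-2 arrays, so such pairs of calls are not independent. The share of all genes with such a pair of calls was not counted, so these numbers do not set the family apart.

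The signalling genes downstream of these receptors were read in 3 lists. Of 22 TRAF and other adaptor genes measured, 1 rose and 8 fell with B7-2, 6 rose and 1 fell on adding BTNL2, and against anti-CD3 alone the BTNL2 wells had 4 higher and 5 lower. Over all genes, 11.2%, 9.52% and 14.2% were called higher and 13.3%, 10.8% and 16.2% lower in the 3 comparisons. The list's median log2 change was -0.18, 0.13 and 0.01 in turn, beside -0.00, -0.01 and -0.00 over all genes. Ripk3, the kinase of necroptosis, was at 572 and 623 in the anti-CD3 wells, 326 and 281 in the B7-2 wells and 362 and 394 in the BTNL2 wells. It fell with B7-2 (-0.98 ± 0.11, limma adjusted p = 0.00124). Map3k14, which encodes NIK, the kinase of the alternative NF-kappaB pathway, fell with B7-2 (-0.84 ± 0.11, limma adjusted p = 0.00181, and -0.54 over the mean of its probe sets). Cyld, a deubiquitinase that restrains NF-kappaB, fell with B7-2 (-0.82 ± 0.11, limma adjusted p = 0.00272) and rose on adding BTNL2 (0.56 ± 0.11, limma adjusted p = 0.0149), the rise being lost without B7-2 replicate 1, B7-2 replicate 2 or BTNL2 replicate 1, with a limma adjusted p of up to 0.0681. Otulin, which removes linear ubiquitin chains, rose on adding BTNL2 (0.96 ± 0.09, limma adjusted p = 0.000407), and Traf1, an adaptor induced by NF-kappaB, fell (-0.61 ± 0.10, limma adjusted p = 0.00527).

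Of 18 death machinery genes measured, 3 rose and 6 fell with B7-2, 6 rose and 3 fell on adding BTNL2, and 5 were higher and 3 lower against anti-CD3 alone, with medians of -0.08, 0.15 and 0.04. Of all genes, 24.5%, 20.4% and 30.4% were called in either direction. Bcl2l11 encodes BIM, a BCL-2 family protein that starts mitochondrial death. It was at 419 and 442 in the anti-CD3 wells, 114 and 107 in the B7-2 wells, and 863 and 683 in the BTNL2 wells, with no overlap between groups. It fell with B7-2 (-1.96 ± 0.13, limma adjusted p = 0.000243) and rose on adding BTNL2 (2.79 ± 0.13, limma adjusted p = 2.58e-05), a 6.94-fold rise. Bcl2, the survival protein that BIM binds, went the same way, with changes of -0.76 ± 0.10 (limma adjusted p = 0.00214) and 0.66 ± 0.10 (limma adjusted p = 0.00387). Casp6, an effector caspase, was at 446 to 456 in the anti-CD3 and B7-2 wells and at 105 and 185 in the BTNL2 wells, a change of -1.68 ± 0.23 on adding BTNL2 (limma adjusted p = 0.00259). Casp9, the caspase activated on the apoptosome, was lower in the BTNL2 wells than with anti-CD3 alone (-0.76 ± 0.11, limma adjusted p = 0.00222, and -0.43 over the mean of its probe sets). Cflar, which encodes c-FLIP, the inhibitor of caspase-8 at death receptors, fell with B7-2 on its brightest probe set (-0.84 ± 0.11, limma adjusted p = 0.00223), but the mean of its probe sets gave 0.25 (limma adjusted p = 0.0665).

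Of 17 NF-kappaB genes measured, 4 rose and 4 fell with B7-2, 5 rose and 2 fell on adding BTNL2, and 4 were higher and 5 lower against anti-CD3 alone, with medians of -0.24, 0.05 and -0.02. The shares of all genes called higher were again 11.2%, 9.52% and 14.2%, and lower 13.3%, 10.8% and 16.2%. Tnfaip3 encodes A20, a feedback inhibitor of NF-kappaB. It was at 372 and 377 in the anti-CD3 wells, 478 and 499.9 in the B7-2 wells, and 178 and 152 in the BTNL2 wells, which lay below all others. It fell on adding BTNL2 (-1.57 ± 0.10, limma adjusted p = 0.000103), or -0.93 over the mean of its probe sets, which was still called. Nfkbie, an inhibitor of NF-kappaB, fell with B7-2 (-1.001 ± 0.10, limma adjusted p = 0.000731) and rose on adding BTNL2 (1.10 ± 0.10, limma adjusted p = 0.000336). Ikbke, a kinase of the antiviral arm, did the same, with changes of -1.69 ± 0.09 (limma adjusted p = 0.000166) and 1.32 ± 0.09 (limma adjusted p = 0.000112). Nfkbid, a nuclear member of the inhibitor family, rose with B7-2 (0.66 ± 0.09, limma adjusted p = 0.00206), and Ikbkg, or NEMO, was lower in the BTNL2 wells than with anti-CD3 alone (-0.69 ± 0.09, limma adjusted p = 0.00136), which the mean of its probe sets did not call (-0.12, limma adjusted p = 0.348).

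**Figure D4:**
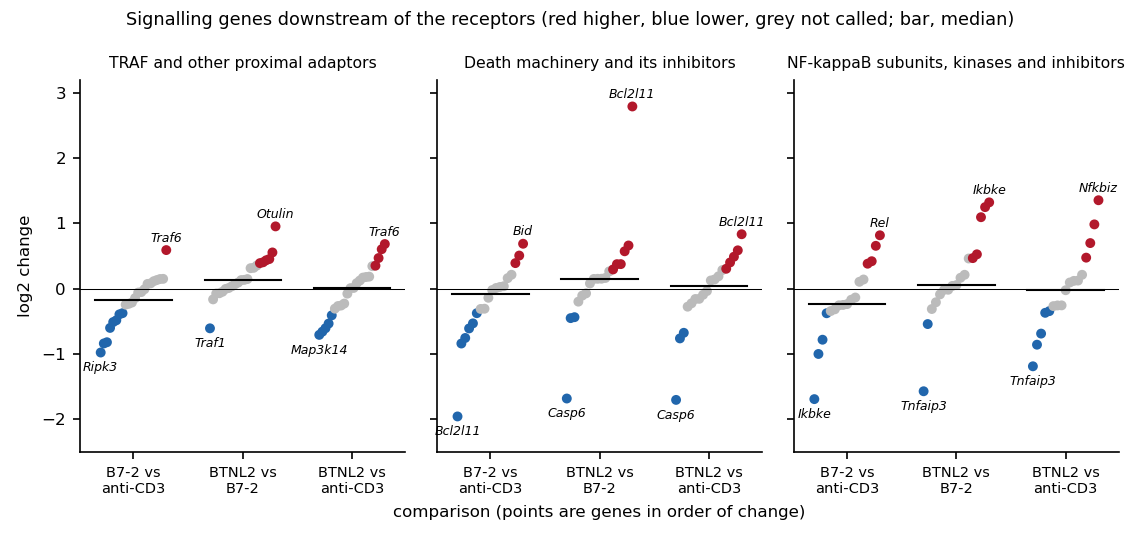
Log2 change of every measured gene in the 3 signalling lists for each comparison, in order of change, with called rises in red, called falls in blue, the rest in grey and the list median as a bar. The genes with the lowest and highest change of each list and comparison are labelled, called or not, and Bcl2l11 is at -1.96 with B7-2 and 2.79 on adding BTNL2.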

How the data were processed

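Total RNA (50 ng) was amplified and biotin-labelled, and each culture was hybridised to 1 array, per the labels' protocols. The authors deposited 1 linear intensity per probe set and array, made with RMA per the submitters' processing notes, with the version not given in the sources used here. RMA makes array distributions alike, which hides a shift shared by most transcripts. Values were log2 transformed, though the design had foreseen log2 values. Of 45141 probe sets, 104 were controls, 28898 had 1 symbol, 551 several, and 15588 are unnamed here. Through Entrez identifiers, 28689 probe sets got current symbols. The test was two-sided, by lmFit and eBayes of limma 3.58.1 (R 4.3.3), with all 6 arrays in 1 fit of 3 group means, 3 residual and 4.02 prior degrees of freedom, and Benjamini-Hochberg adjustment over 17097 genes. The number of arrays limits the precision. The procedure was also run on simulated arrays with independent noise and far fewer changed genes than were called here. That run is no test of these calls. Replicate numbers were not used to pair the samples in the main fit. Members called with at least a 2-fold change were to be described on every array, other called members by their changes, and of each signalling list the 3 genes with the smallest p in each comparison. The members and lists were chosen with earlier results of these data known. Alternatives changed the variance prior, the arrays in the fit, a filter on dim genes, the scaling, the probe set, the replicate block and each array in turn. Promoters and neighbouring genes come from RefSeq tables of GRCm38.p6.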

Additional observations from a re-analysis of the deposited data

How the results depend on the processing

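Of 50 calls of members over the 3 comparisons, 30 were kept under every alternative other than single probe sets, namely 10 of 15, 7 of 16 and 13 of 19 with B7-2, on adding BTNL2 and against anti-CD3 alone. With 1 array left out, the members called were 12 to 16, 10 to 15 and 13 to 19 in turn, and over all genes 2454 to 4128, 2142 to 3015 and 3726 to 4870, where the full fit called 4190, 3482 and 5197. The 10 called on adding BTNL2 were 10 higher and 0 lower without B7-2 replicate 1, and 9 higher and 1 lower without B7-2 replicate 2 and without BTNL2 replicate 1. Other processing alternatives gave 13 to 20, 14 to 18 and 18 to 19 members. With the replicate number as a block, 13, 14 and 19 members were called and 4 calls were lost, those of Tnfrsf14 and Tnfsf9 with B7-2 and of Tnf and Tnfrsf4 on adding BTNL2, with 0 gained and 0 reversed. Deviations of same-numbered arrays correlated at -0.06, -0.03 and -0.00 across genes, so they showed no shared deviation. Such a correlation cannot show whether arrays of equal number share an animal or a day. Leaving out an array of the group outside a comparison is the same fit as its 4 arrays alone. Among values called on the brightest probe set or on the alternative, directions turned with a single other probe set for Tnfsf11 with B7-2 (-0.32), Tnfrsf19 on adding BTNL2 (-0.39) and against anti-CD3 (-0.18), Tnfrsf9 (0.085 and 0.22), Tnfsf13b (-0.12 and -0.086), Tnfrsf10b against anti-CD3 (-0.011) and Tnfrsf21 against anti-CD3 (0.84, or 0.41 over the mean of its probe sets). The cause was not tested. Of these other probe sets, several lay near background, where signals limit what can be measured.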
